A study of Mus musculus with 6 samples.

Results

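The early genes that T cells switch on after TCR engagement were followed in BM Tregs of CML and naive mice. The 9 genes are Nr4a1, Nr4a2, Nr4a3, Egr1, Egr2, Egr3, Nfatc1, Myc and Cd69. They were taken by name, for this known response, with earlier results of these data known. All 9 occur once among the 36930 features of each table, and all 9 were tested, since their mean over all libraries was 1 RPKM or more. RPKM are reads scaled by the length of a feature and by the reads of its library. Where values of single libraries are listed, they follow the order of replicates 1, 2 and 3.

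Tregs were sorted from the BM of 3 CML and 3 naive mice of the Foxp3-DTR-GFP strain, aged 8 weeks after birth. In this strain the Foxp3 locus drives a diphtheria toxin receptor and GFP, and the labels of these libraries name no toxin treatment. CML mice had received LSKs (stem and progenitor cells) transduced with BCR-ABL1-GFP without irradiation, so that they kept their own hematopoiesis. The retrovirus also carries GFP, and neither the gates of the sort nor its day after induction are given for these libraries in the sources used here.

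Stimulation of the TCR raises calcium, which activates calcineurin and moves NFAT proteins into the nucleus, and it activates the MAPK pathway, which acts on serum response factor and on CREB. Egr and Nr4a genes are transcribed within the first hours of this signal. They encode zinc finger factors and orphan nuclear receptors, respectively, and the Nr4a receptors are needed for the development and identity of Tregs. Cd69 is an early surface marker of activation that keeps lymphocytes in tissue by antagonizing S1pr1, and Myc drives growth of activated cells.

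In the promoters of the Nr4a genes, the stretches before the start site carried a shared sequence feature, and they are shown for this reason. The RefSeq promoter table of build GRCm38.p6 held 4 of the 9 genes (Nr4a1, Nr4a2, Nr4a3 and Egr2). Entries for Egr1, Egr3, Nfatc1, Myc and Cd69 were not used here. The 250 bases before each start were searched on both strands for TGACG, the core of the cAMP response element that CREB binds (read as CGTCA on the other strand). Capitals mark this core, the CArG box of serum response factor and the GC-rich Egr site GCGGGGGCG (read as CGCCCCCGC on the other strand). The stretch of Nr4a3 ends where the first annotated exon of another transcript begins, and that of Egr2 is limited to the bases around the CArG box. None of the 4 stretches touches an exon of the GENCODE annotation, and those of Nr4a1 and Egr2 lie in introns of transcripts that start further upstream.
Nr4a1 promoter, plus strand, chr15:101266596-101266845: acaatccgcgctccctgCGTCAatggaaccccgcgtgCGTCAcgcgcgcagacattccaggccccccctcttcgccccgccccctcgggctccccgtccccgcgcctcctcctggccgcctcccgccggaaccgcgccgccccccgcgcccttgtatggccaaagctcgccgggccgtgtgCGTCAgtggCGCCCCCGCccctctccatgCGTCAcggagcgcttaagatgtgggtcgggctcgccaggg
Nr4a2 promoter, minus strand, chr2:57124004-57124253: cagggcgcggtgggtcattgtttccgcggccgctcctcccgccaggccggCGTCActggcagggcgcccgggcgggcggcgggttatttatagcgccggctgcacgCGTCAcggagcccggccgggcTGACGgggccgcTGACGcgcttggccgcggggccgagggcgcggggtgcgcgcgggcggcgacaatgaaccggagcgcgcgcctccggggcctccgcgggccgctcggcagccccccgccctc
Nr4a3 promoter, plus strand, chr4:48045055-48045152: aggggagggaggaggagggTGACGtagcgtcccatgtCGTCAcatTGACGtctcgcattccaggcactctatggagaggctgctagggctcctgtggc
Egr2 promoter, plus strand, chr10:67537789-67537818: tcctcagtCCATATATGGgcagcgaCGTCA

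Each of the 3 Nr4a promoters held the TGACG core 4 times in the 250 bases, the fourth of Nr4a3 lying beyond the stretch printed. Of 32536 distinct promoter windows of this length, 17.9% held the core at least once and 45 (0.138%) held it at least 4 times. This count was chosen after the sequences were seen. In Nr4a1, all 4 cores lay within the longer word TGCGTCA, which occurs in 1.76% of windows. Nr4a1 also held the Egr site GCGGGGGCG once, from 60 to 52 bases before the start, a word found in 2.6% of windows. The table held 5 start sites for Egr2, of which 3 had overlapping windows. These 3 share the CArG box shown and hold the TGACG core 2 times. A CArG box, CC and GG around a run of A and T, occurs in 1.48% of windows. Other motifs were searched on both strands in the same windows: the full cAMP response element TGACGTCA, which contains the core, the AP-1 site TGACTCA, the Nr4a site AAAGGTCA, the classic Egr site GCGTGGGCG, the NFAT core TGGAAA, the Myc E-box CACGTG and the GC box GGGCGG, which can overlap the Egr sites. In the 3 Nr4a windows, of these only the GC box, found in 33% of windows, was present. Of the Egr2 windows, the first start site held the Myc E-box and 4 GC boxes, and the second held another CArG box, the NFAT core and 1 GC box. Matches of letters do not show that a factor was bound in these cells.

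The libraries differed in depth. From the steps of the deposited values, reads were estimated at 829181 to 7613827 in CML Tregs and at 5187987 to 9751911 in naive Tregs, and CML replicate 2 had the fewest. The 10 highest features made up 50.7% of the summed values there and 28.5% to 31.3% elsewhere. The sort was checked with marker genes. The 8 Treg markers, Foxp3 and Cd4 among them, summed to 2028 to 2798 RPKM in CML and 2005 to 2284 RPKM in naive Tregs. Of markers of other cells, Pax5, Retnlg, Fcgr1, Xcr1, Hoxa9 and Ppbp had no reads in any library. The 10 neutrophil markers summed to 9.98, 207 and 223 RPKM in CML replicates 1, 2 and 3 and to 30.3, 53.9 and 51.2 RPKM in naive replicates 1, 2 and 3. The 8 erythroid markers summed to 41.8 to 249.99 RPKM in CML and 5.93 to 30.9 RPKM in naive Tregs, and the 5 stem and progenitor markers to 6.80 to 8.77 and 2.57 to 3.93 RPKM, both without overlap. The B and plasma cell markers Cd79a, Cd79b, Ms4a1, Pax5 and Sdc1 summed to 9.54, 7.28 and 3.18 RPKM in the CML libraries, below the 11.3, 10.8 and 10.4 RPKM of the naive libraries. The 3 NK markers summed to at most 5.64 RPKM and the 3 megakaryocyte markers to at most 5.52 RPKM in any library. The 4 dendritic cell markers summed to 106 to 242 RPKM, mostly Siglech, the 2 CD8 markers to 26.2 to 74.2 RPKM and the 6 monocyte and macrophage markers in the tables to 33.9 to 107 RPKM, with overlapping groups. The part of other cells in the values of the early genes was not tested.

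Levels of the early genes differed widely within each group. Nfatc1 was the highest of the 9 in both groups, with a mean of 126 RPKM in CML and 133 RPKM in naive Tregs. Cd69 came next, and its libraries lay below those of Nfatc1 and above those of Nr4a1 in both groups. Behind Cd69, the order in naive Tregs was Nr4a1, Myc, Egr1, Nr4a3, Egr3, Nr4a2 and Egr2, and libraries of every pair of neighbors overlapped. In CML Tregs the order was Nr4a1, Egr1, Nr4a3, Myc, Egr2, Egr3 and Nr4a2. There, Egr1 lay apart from Nr4a3 and Myc apart from Egr2, whereas the other neighbors overlapped. Egr2 was thus the lowest of the 9 genes in naive Tregs at 2.38 ± 0.85 RPKM (SD, n = 3) but not in CML Tregs. RPKM, the unit inferred here, are scaled by length, so that levels of different genes can be set side by side. Their order thus depends on the gene lengths that the authors used, which are not known here.

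**Figure D1:**
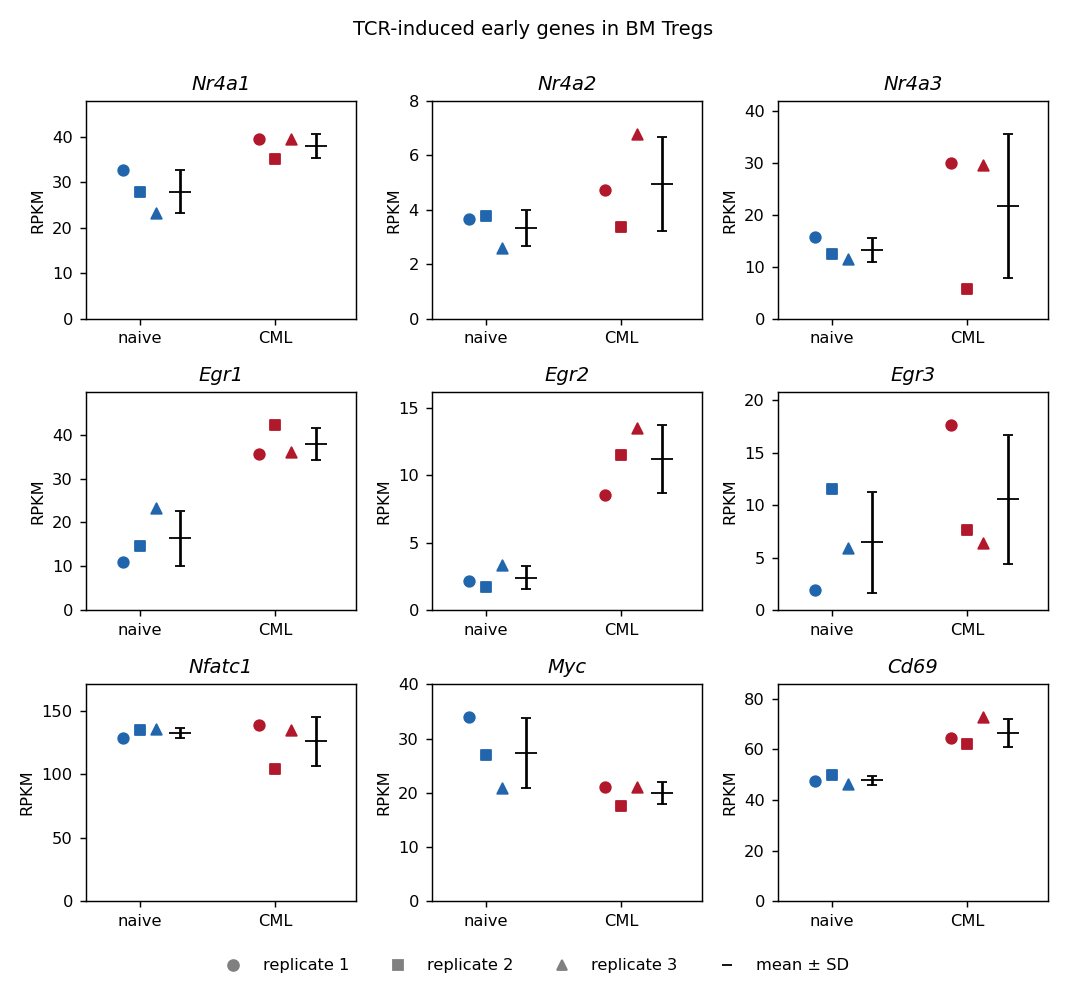
RPKM of the 9 early genes (vertical axes, each starting at 0) in naive and CML Tregs, with a marker for each replicate and the mean ± SD beside it. Nr4a1, Egr1, Egr2 and Cd69 lay higher in all 3 CML libraries than in all 3 naive libraries, and Nr4a3 was low in CML replicate 2 only.

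Expression of Egr1 and Egr2 was higher in CML Tregs than in naive Tregs, in every library. Cd69 and Nr4a1 were also higher in every CML library, by smaller amounts. Nr4a2, Nr4a3, Egr3, Nfatc1 and Myc overlapped between the groups. With limma's moderated test on log2(RPKM + 1), 0 of the 9 genes passed an adjusted p under 0.05 with a fold of at least 1.5, a call that 0.172% of the 13923 genes tested passed. When the p was left unadjusted and the fold kept, 2 of the 9, Egr1 and Egr2, were higher in CML Tregs, compared with 2.61% of all genes tested, and 0 of the 9 were lower, compared with 5.94%. At any fold, Cd69 was the third, so that 3 of the 9 were higher, compared with 2.92%. Cd69 did not pass the unadjusted p in 6 of 15 alternatives, among them those without CML replicate 3 and without each naive library. Without overlap between the groups, 4 of the 9 were higher, compared with 4.84%, and 0 were lower, compared with 12.2%. The median log2 fold change of the 9 genes was 0.44, and that of all genes tested was -0.18. In sorted bulk RNA, more cells that express a gene and more RNA per cell cannot be told apart.

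Egr2 encodes a zinc finger factor that restrains T cell activation and supports tolerance (chromosome 10 from 67535475 to 67542188, plus strand). It had 8.56, 11.5 and 13.5 RPKM in the CML libraries. The naive libraries had 2.14, 1.68 and 3.33 RPKM. The lowest CML library was thus above the highest naive library, and Egr2 moved from percentiles 11.2 to 21.0 of the tested genes in naive Tregs to percentiles 40.4 to 54.1 in CML Tregs. Percentile 54.1 belonged to CML replicate 2, which had the fewest features with reads (12589). CML replicate 3, with the higher value, was at percentile 50.6. The means of 11.2 ± 2.5 and 2.38 ± 0.85 RPKM (SD, n = 3) gave a log2 fold change of 1.86 ± 0.41 (estimate ± its standard error, limma unadjusted p = 0.00212, adjusted p = 0.218), rank 87 among the 13923 genes by log2 fold change. In CML replicate 2 the value corresponds to about 28 reads, and the exact 95% Poisson interval of that number, 7.57 to 16.5 RPKM, lay above all naive values. Such intervals cover the counting error of reads only. How PCR copies of a molecule were handled is not given in the sources used here. If copies were counted as separate reads, the intervals are too narrow.

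Egr1 is the prototype of the family and responds to the MAPK pathway (chromosome 18 from 34859823 to 34864984, plus strand). Its values were 35.6, 42.2 and 36.04 RPKM in the CML libraries, against 11.1, 14.7 and 23.3 RPKM in the naive libraries. The groups did not overlap, and the CML libraries were close together whereas the naive libraries were spread, with SDs of 9.68% and 38.5% of the mean. On the log2 scale the difference was 1.22 ± 0.30 (estimate and standard error, limma unadjusted p = 0.00364, adjusted p = 0.248).

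Egr3 encodes a factor that acts together with Egr2 in T cells (chromosome 14 from 70077203 to 70082614, plus strand). It had 17.6, 7.68 and 6.36 RPKM in the CML libraries, against 1.93, 11.5 and 5.90 RPKM in the naive libraries. The highest and the lowest value belonged to CML replicate 1 and naive replicate 1, and the other 4 libraries overlapped between the groups (log2 fold change 0.74 ± 0.62, estimate ± its standard error, limma adjusted p = 0.706). It was 0.19 without naive replicate 1, 0.34 without CML replicate 1 and 1.24 without naive replicate 2. Summed over the 3 Egr genes, CML libraries had 55.9 to 61.7 RPKM and naive libraries had 15.1 to 32.5 RPKM, and Egr1 held more than the other two together in every library (52.6% to 73.1% of the sum).

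Nr4a1 encodes Nur77, a reporter gene of TCR signal strength (chromosome 15 from 101254269 to 101274795, plus strand). It had 39.4, 35.0 and 39.5 RPKM in the CML libraries. The naive libraries had 32.7, 27.9 and 23.1 RPKM. The groups did not overlap, but the gap between the lowest CML and the highest naive library was small compared with the spread of the naive libraries. The means were 38.0 ± 2.58 and 27.9 ± 4.79 RPKM (SD, n = 3), with a log2 fold change of 0.44 ± 0.21 (estimate ± its standard error, 95% confidence interval -0.06 to 0.94, limma unadjusted p = 0.0746, adjusted p = 0.561).

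Nr4a3 encodes Nor1 (chromosome 4 from 48045153 to 48086447, plus strand). It had 29.8, 5.76 and 29.5 RPKM in the CML libraries, against 15.8, 12.3 and 11.4 RPKM in the naive libraries. Thus CML replicates 1 and 3 lay above all naive libraries and CML replicate 2 below all of them. The value of CML replicate 2 corresponds to about 27 reads, with an exact 95% Poisson interval of 3.75 to 8.28 RPKM. The log2 fold change was 0.40 over all 6 libraries (standard error 0.58, limma unadjusted p = 0.512, adjusted p = 0.833) and 1.13 without CML replicate 2 (limma unadjusted p = 0.00275, adjusted p = 0.178; 0.178 to 0.985 over all alternatives). Without that library, 3 of the 9 genes passed the unadjusted p with the fold, all of them higher, compared with 4.87% of all genes tested, and 6 were higher without overlap (Nr4a2 and Nr4a3 in addition), compared with 13.9%. Without CML replicate 1 or CML replicate 3, the log2 fold change of Nr4a3 fell to 0.03 and 0.04.

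Nr4a2 encodes Nurr1 and was the lowest of the family in every library (chromosome 2 from 57106830 to 57124003, minus strand). It had 4.71, 3.35 and 6.78 RPKM in the CML libraries, against 3.68, 3.78 and 2.59 RPKM in the naive libraries. CML replicate 2 lay within the naive range, with about 10 reads (log2 fold change 0.42 ± 0.44, estimate ± its standard error, limma adjusted p = 0.758). With 1 library left out it ran from 0.21 (CML replicate 3) to 0.63 (CML replicate 2). The makeup of the family was similar in the 3 naive libraries, where Nr4a1 held 62.4% to 63.3% and Nr4a3 held 28.1% to 30.7% of the summed RPKM. In CML replicates 1, 2 and 3, Nr4a3 held 40.4%, 13.1% and 38.9% of the sum. The share of Nr4a3 was therefore above the naive range in 2 of the CML libraries and below it in CML replicate 2.

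Cd69 had 64.6, 62.3 and 72.9 RPKM in the CML libraries, against 47.6, 49.8 and 46.2 RPKM in the naive libraries (chromosome 6 from 129267325 to 129275436, minus strand). The gap between the groups was larger than the range of either group. The means of 66.6 ± 5.58 and 47.9 ± 1.78 RPKM (SD, n = 3) gave a log2 fold change of 0.46 ± 0.17 (estimate ± its standard error, 95% confidence interval 0.08 to 0.85, limma unadjusted p = 0.0242, adjusted p = 0.433), which is a fold of 1.38 and below the fold threshold.

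Nfatc1 encodes a calcium-responsive NFAT factor that amplifies its own transcription in activated T cells (chromosome 18 from 80606205 to 80713071, minus strand). It had 139, 104 and 135 RPKM in the CML libraries, against 128, 135 and 136 RPKM in the naive libraries. Apart from CML replicate 2, all libraries lay within 128 to 139 RPKM. The log2 fold change was -0.09, with a 95% confidence interval of -0.47 to 0.30 (limma adjusted p = 0.878). Without CML replicate 2 it was 0.046.

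Myc was the other gene with a lower mean in CML Tregs (chromosome 15 from 61985391 to 61990374, plus strand). It had 21.2, 17.7 and 21.2 RPKM in the CML libraries, against 34.03, 27.1 and 21.0 RPKM in the naive libraries. The CML libraries were tight, and naive replicate 3 lay within their range. On the log2 scale the difference was -0.41 ± 0.26 (estimate and standard error, 95% confidence interval -1.01 to 0.19, limma adjusted p = 0.639). With 1 library left out it ran from -0.58 (naive replicate 3) to -0.25 (naive replicate 1).

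**Figure D2:**
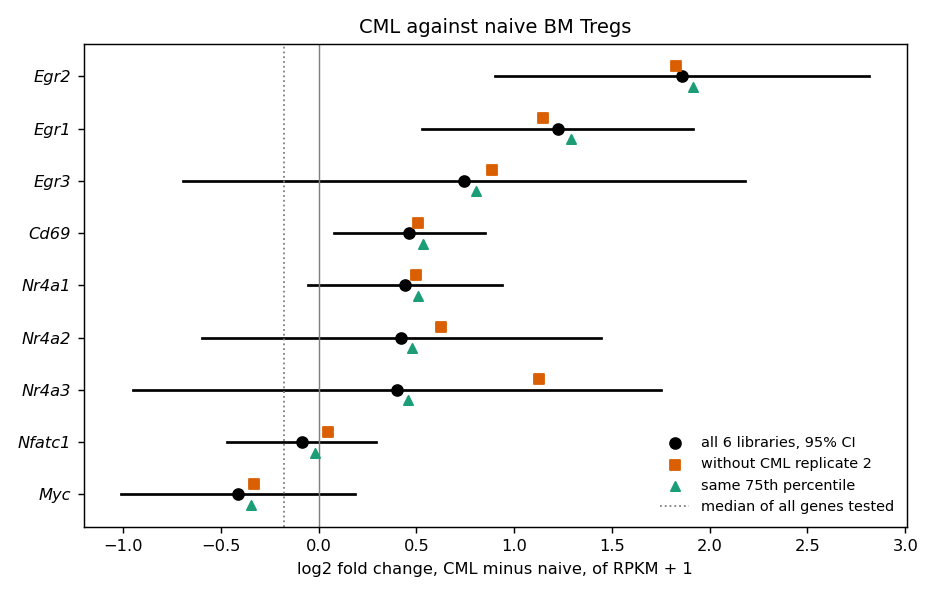
Log2 fold change (CML minus naive, on RPKM + 1) of the 9 genes with all 6 libraries (circles, lines are limma's 95% confidence intervals), without CML replicate 2 (squares) and after scaling by the 75th percentile (triangles). Nr4a3 moved most, from 0.40 to 1.13 without CML replicate 2, and the intervals of Egr1, Egr2 and Cd69 lay above 0.

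The scaling between libraries changed which genes did not overlap. Over all genes, the median moved from -0.18 to -0.12 when the libraries were scaled to the same 75th percentile. On that scale, 6 of the 9 genes did not overlap. Nr4a1, Nr4a2, Egr1, Egr2 and Cd69 were higher in CML Tregs, compared with 6.49% of all genes tested, and Myc was lower, compared with 11.2%. With quantile normalization the median was -0.0068, and these 5 genes were again higher without overlap, compared with 8.88%, and 0 were lower, compared with 9.12%.

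Egr, Nr4a and Cd69 mRNAs can also be induced by the handling of cells. Fos, Fosb, Jun and other genes known for induction during tissue dissociation were therefore set beside them. Of 20 such genes, 19 were tested, and 12 of these had a log2 fold change below 0 (median -0.24). Among all 13923 genes tested, 8946 were below 0 (median -0.18). By unadjusted p and fold, 1 was higher, compared with 2.61% of all genes tested, and 0 were lower, compared with 5.94%. Fos, the AP-1 subunit, had 187, 197 and 338 RPKM in the CML libraries, against 336, 295 and 319 RPKM in the naive libraries. Thus 2 of the 3 CML libraries lay below all naive libraries. Among the genes of this list with the lowest p, Socs3, a feedback inhibitor of cytokine signals, was higher in CML Tregs (72.6 ± 14.4 and 41.5 ± 3.17 RPKM, SD, n = 3, limma unadjusted p = 0.00595, adjusted p = 0.282). Klf6 had 214 ± 37.5 and 286 ± 30.3 RPKM (limma adjusted p = 0.500), Junb 218 ± 30.3 and 286 ± 44.1 RPKM (limma adjusted p = 0.539), and Btg2 97.6 ± 46.3 and 158 ± 24.4 RPKM (limma adjusted p = 0.522). Hspa1a, a heat shock gene, had 793 RPKM in naive replicate 3 and 160 to 398 RPKM elsewhere. Within the naive group, this library had the highest values of Egr1, Egr2 and Nfatc1. It had the lowest values of Nr4a1, Nr4a2, Nr4a3, Myc and Cd69, and Egr3 lay between the other naive libraries. The part of handling in the values of the early genes was not tested.

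**Figure D3:**
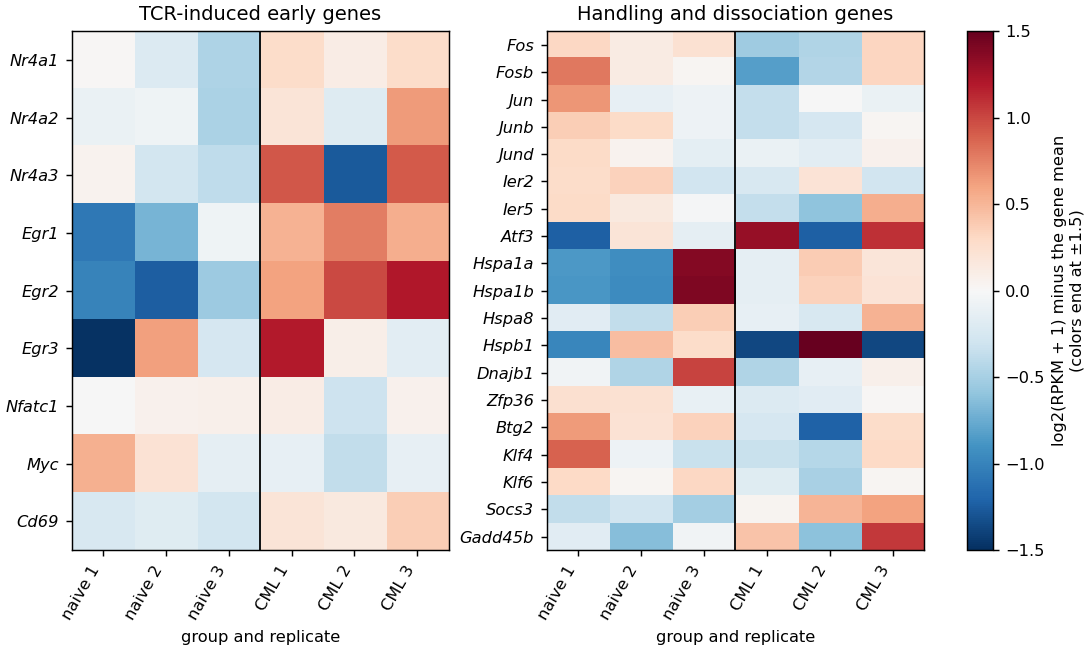
Log2(RPKM + 1) of each gene minus its mean over the 6 libraries (colors, ending at ±1.5) for the 9 early genes and the 19 handling and dissociation genes tested, with naive libraries left and CML libraries right of the line. Egr1 and Egr2 were high in all CML libraries. Of the 19 handling and dissociation genes, 12 had a log2 fold change below 0 and 7 above 0. Fos and Fosb, picked after their values were seen, were low in CML replicates 1 and 2. Socs3, of the same list, lay above its mean in all CML libraries and below it in all naive libraries.

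Other transcription factors induced by TCR signals were compared next. Of 18 genes, 16 were tested, and 11 of them had a higher mean log2 value in CML Tregs, as did 4977 of all 13923 genes tested. By unadjusted p and fold, 4 were higher and 0 lower, compared with 2.61% and 5.94% of all genes tested. Without overlap, 7 were higher and 0 lower, compared with 4.84% and 12.2%. The adjusted p was passed by 0 of them (median log2 fold change 0.47). Fosl2, an AP-1 subunit, had 22.4, 24.6 and 24.97 RPKM in the CML libraries, against 4.91, 8.37 and 9.41 RPKM in the naive libraries (log2 fold change 1.58, limma unadjusted p = 0.00115, adjusted p = 0.161). Prdm1, which encodes Blimp-1 of effector Tregs, had 48.3 ± 7.71 and 21.0 ± 1.05 RPKM (SD, n = 3, limma adjusted p = 0.131, and 0.0458 to 0.0483 with quantile normalization, the 75th percentile and library weights). Bhlhe40 had 73.6 ± 26.6 and 37.4 ± 4.48 RPKM (limma adjusted p = 0.346), and Hif1a had 331 ± 70.2 and 213 ± 35.5 RPKM (limma adjusted p = 0.392). All 4 were higher in each CML library than in each naive library.

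Genes for surface and secreted proteins induced by TCR signals included the gene that was called in the lists. Of 22 genes, 21 were tested, with a median log2 fold change of 0.64. In this list, 9 were higher and 0 lower by unadjusted p and fold, compared with 2.61% and 5.94% of all genes tested. Without overlap, 10 were higher and 1 lower, compared with 4.84% and 12.2%. Only Tnfrsf9 passed the adjusted p here (log2 fold change 2.16, limma adjusted p = 0.0194), and it lost the call in 8 of 15 alternatives, with an adjusted p of up to 0.11. Gzmb, which encodes granzyme B, had 123.2, 112 and 178 RPKM in the CML libraries, against 6.74, 15.02 and 31.2 RPKM in the naive libraries (log2 fold change 3.10, limma adjusted p = 0.0729). The chemokine Ccl4 had 31.7 ± 13.4 and 3.93 ± 0.98 RPKM (SD, n = 3, limma adjusted p = 0.0578, and 0.0328 to 0.0371 with quantile normalization, the 75th percentile and library weights). The chemokine Ccl3 had 27.3, 25.9 and 25.1 RPKM in the CML libraries, against 5.53, 0 and 0 RPKM in the naive libraries (limma adjusted p = 0.141).

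Feedback regulators of TCR, calcium and MAPK signaling were mixed. Of 30 genes, 29 were tested, with a median log2 fold change of 0.23. Higher by unadjusted p and fold were 5, compared with 2.61% of all genes tested, and 2 were lower, compared with 5.94%. With limma, 0 of them passed the adjusted p over all 6 libraries. Pdcd1 passed it with quantile normalization, the 75th percentile, library weights and without CML replicate 2 (adjusted p of 0.0253 to 0.0483), and Dgka with quantile normalization and the 75th percentile (0.0483 and 0.0458). Pdcd1, which encodes PD-1, had 90.7, 40.3 and 96.4 RPKM in the CML libraries, against 22.7, 16.7 and 20.1 RPKM in the naive libraries (log2 fold change 1.79, limma adjusted p = 0.148). Dusp6, the phosphatase of ERK, had 17.3 ± 3.83 and 7.89 ± 1.51 RPKM (SD, n = 3, limma adjusted p = 0.357), and Cish had 178 ± 31.1 and 90.6 ± 12.8 RPKM (limma adjusted p = 0.152). Dgka, a kinase that removes diacylglycerol and so limits signals of the TCR, had 292, 190 and 311 RPKM in the CML libraries, against 548, 639 and 475 RPKM in the naive libraries (log2 fold change -1.09, limma adjusted p = 0.161).

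Genes of the pathway upstream of Nfatc1 were compared as well. Of 16 NFAT, calcineurin and calcium entry genes, 14 were tested, with a median log2 fold change of -0.08. Unadjusted p and fold gave 1 higher and 1 lower, compared with 2.61% and 5.94% of all genes tested. The higher gene, Rcan1, is also in the list of feedback regulators and is 1 of the 5 higher there. Rcan1, an inhibitor of calcineurin and a known NFAT target, had 6.89, 5.42 and 17.7 RPKM in the CML libraries, against 0.29, 5.47 and 1.85 RPKM in the naive libraries, so that CML replicate 2 lay just below naive replicate 2 (limma adjusted p = 0.487). The calcium channel gene Orai2 had 8.74 ± 2.5 and 19.4 ± 3.39 RPKM (SD, n = 3, limma adjusted p = 0.325). Stim2, a calcium sensor of the endoplasmic reticulum, had 27.6 ± 5.69 and 40.2 ± 3.07 RPKM (limma adjusted p = 0.497). These were the 2 genes of the list lower without overlap, compared with 12.2% of all genes tested. None of the list (0) was higher without overlap, compared with 4.84%. Ppp3r1, the regulatory subunit of calcineurin, had 85.1 ± 19.98 and 66.6 ± 6.74 RPKM (limma adjusted p = 0.639).

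Partners and targets of Myc were compared because Myc itself had a lower mean in CML Tregs. Of 12 genes of the Myc network, 11 were tested (median log2 fold change -0.20). Among them, 1 was higher and 0 lower by unadjusted p and fold, compared with 2.61% and 5.94% of all genes tested. Mxd1, a partner of Max that opposes Myc at its sites, had 140, 63.5 and 78.0 RPKM in the CML libraries, against 24.5, 40.2 and 39.0 RPKM in the naive libraries (log2 fold change 1.37, limma unadjusted p = 0.00344, adjusted p = 0.245). Mxd1 was the 1 gene of the network higher without overlap, compared with 4.84% of all genes tested. Mga and Fbxw7 were the 2 lower without overlap, compared with 12.2%. Mxd3 had 6.36 ± 4.97 and 1.68 ± 0.74 RPKM (SD, n = 3, limma adjusted p = 0.563), Mga 29.5 ± 5.75 and 41.5 ± 4.32 RPKM (limma adjusted p = 0.542), and Fbxw7, a subunit of the ligase that marks Myc for degradation, 14.3 ± 9.32 and 22.3 ± 2.84 RPKM (limma adjusted p = 0.644). All 30 Myc target genes were tested (median log2 fold change 0.03). Compared with 2.61% and 5.94% of all genes tested, 2 targets were higher and 2 targets lower by unadjusted p and fold. These were Ldha (130 ± 33.7 and 82.2 ± 5.30 RPKM) and Cdk4 (43.9 ± 6.84 and 27.4 ± 8.09 RPKM), and Rrp9 (9.82 ± 2.22 and 17.3 ± 2.15 RPKM) and Hspe1 (56.6 ± 9.86 and 94.2 ± 36.03 RPKM), with limma adjusted p of 0.429 to 0.510.

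**Figure D4:**
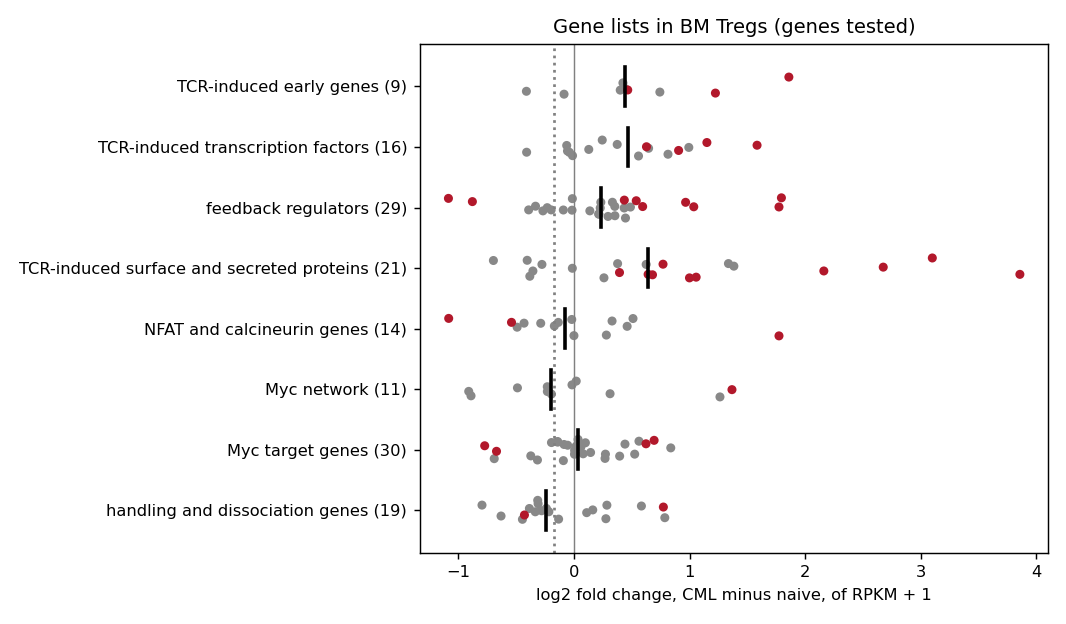
Log2 fold change (CML minus naive, on RPKM + 1) of each tested gene in the 9 early genes and the 7 other lists, with the number tested in parentheses. Red points have a limma unadjusted p under 0.05, black bars are list medians, and the dotted line is the median of all genes, -0.18.

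Genes with the most similar profile were sought by the mean absolute difference of centered log2(RPKM + 1) values over the 6 libraries. This is a description of these libraries, which differ in depth, and carries no test. Nearest to Nr4a1 were Ctla4 (0.05), which is also among the feedback regulators, LOC105245755 (0.06) and Gm2a (0.07). Nearest to Cd69 were Plaa (0.04), Rap1b (0.06) and Ppib (0.07). Nearest to Egr2 were Gm16434 (0.14), Ppp1r3b (0.16) and Baiap3 (0.17). Among the 9 early genes, Nr4a1 and Cd69 were the closest pair (0.11).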

How the data were processed

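RNA of sorted BM Tregs from 3 CML and 3 naive mice was measured, with 3 mice in each group per the paper and a replicate number for each library per the labels. The authors prepared SMART-Seq v4 libraries, which do not keep strand, used SeqMan NGen to assemble the single-end reads and ArrayStar for expression, with build GRCm38 (mm10) in the submitters' processing notes. The paper does not name a unit, and RPKM is inferred here for the deposited tables. This rests on the values: their sums differ between libraries, and value times RefSeq length of short RNA genes fell within 0.05 of a whole multiple of a fixed step for 34.6% to 65.4% of products up to 20 steps. Reads per gene derived from the step are estimates, as the lengths of the 9 genes (longest GENCODE M21 transcript) may not be those of the authors. A value of 0.001, which marks no reads, was set to 0. The normalization by the authors cannot be undone, and no count test was run.

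Genes averaging 1 RPKM or more entered a limma fit (version 3.58.1, R 4.3.3) of log2(RPKM + 1) on the group, with a trended prior variance and Benjamini-Hochberg adjustment over all of them. Folds on this scale understate changes of low genes. An exact permutation test of 3 mice against 3 cannot go below p = 0.1. The labels give no batch. The members and gene lists were chosen with earlier results of these data known. Named genes are the 9 members, the 4 lowest p of each list and the 3 nearest profiles of Nr4a1, Egr2 and Cd69. Fos, Fosb and Hspa1a were singled out after their values were seen. No annotated exon of another gene overlapped an exon of a member. The fit was tested on simulated data with the spread of each gene. By adjusted p, it recovered 0 of 200 genes changed by a log2 of 1 and 58 of 200 (29%) changed by 2. Most changes of this size were thus missed by the adjusted p. Alternatives covered the pseudocount, filter, scaling, each library left out, the replicate number as a block, the prior and library weights. Python 3.11.15 with pandas 2.3.3, numpy 2.4.6, scipy 1.17.1 and matplotlib 3.10.9 was used for the other steps.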

Additional observations from a re-analysis of the deposited data

How the results depend on the processing

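The 9 early genes kept the direction of their log2 fold change in all 15 alternatives, except Nfatc1 (0.046 without CML replicate 2, and -0.16 to 0.046 over the libraries left out) and Nr4a2 with a mean of at least 5 RPKM, where it was not tested. None of the 9 passed the adjusted p in any alternative. Egr1 and Egr2 passed the unadjusted p with the fold in all of them, Cd69 passed the unadjusted p in 9 of 15 and Nr4a1 in 4 of 15. Nr4a3 joined Egr1 and Egr2 with library weights and without CML replicate 2. The log2 fold change of Egr2 ran from 1.13 to 2.22 and that of Egr1 from 0.99 to 1.497, with adjusted p of 0.13 to 0.727 and 0.197 to 0.758. Over all genes, 24 calls became 53 with quantile normalization and with the same 75th percentile, 45 with library weights, 11 without the trend, 1 without the filter and 1 with the replicate number as a block, and 0 to 29 with a library left out (0 without naive replicate 1 or 2, 3 without naive replicate 3, 8 without CML replicate 3; at an unadjusted p with the fold, 745 and 731 where 0). Calls at the unadjusted p were 363 higher and 827 lower, and 624 and 590 with quantile normalization. Samples with the same number did not deviate together (r = -0.00477, -0.00159 and -0.0192), so that the numbers were not taken as pairs, and with the block Cd69 no longer passed the unadjusted p (p = 0.0676 by limma), which left 2 of the 9 genes. About 10 reads of Nr4a2 and 25 of Egr3 in CML replicate 2 limit what these genes can show.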
